A study of Homo sapiens with 4 samples.

Results

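Regions called with an antibody against ARID3B were set against regions called with an antibody against KDM4C in OECM1 control cells. OECM1 is an established line of head and neck cancer cells, grown in RPMI with fetal bovine serum. The control cells carried a Cas9 control (Cas9-ctrl), and the edited cells of the same study, used here only as a further readout, had received Cas9 directed at ARID3B (labelled ARID3B-Cas9 in the source and ARID3B-KD in the title). Whether the cells were a clone or a pool is not given in the sources used here. Each antibody and kind of cell had 1 chromatin immunoprecipitation library, so nothing here has a replicate check, and the 95% intervals in parentheses cover counting error only. The members were all peaks on chromosomes 1 to 22 of the 2 control lists, 3095 for ARID3B and 1341 for KDM4C, together 4436 of the 11483 peaks of the series. Positions are on GRCh37. No input or other control library was used in peak calling, and how much of any region's signal would appear without either antibody was not tested.

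ARID3B is a DNA-binding protein of the AT-rich interaction domain family, named for the AT-rich sequence that some of its members favour. KDM4C is a histone demethylase that removes methyl groups from lysines of histone tails, among them a mark of silent heterochromatin, the compact chromatin that is dense around centromeres. It has no sequence-specific DNA-binding domain of that kind, so a DNA-binding partner is one way for such an enzyme to reach a site. The comparison asked where peaks of both antibodies were called in the same kind of cells. Whether both proteins were present at such a region was not tested.

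A peak was counted as co-called when it shared at least 1 bp with a peak of the other antibody. Of the 3095 ARID3B peaks, 488 were co-called (15.8%, 14.5 to 17.1). Of the 1341 KDM4C peaks, 496 were co-called (37.0%, 34.4 to 39.6). The remaining 2607 ARID3B-only and 845 KDM4C-only peaks made up most of both lists. The shorter list gives the larger share by its length, and with the ARID3B list limited to its 1341 highest scores the shares were 32.6% and 33.3%. The co-called peaks joined into 474 separate regions, of which 442 held exactly 1 peak of each antibody. No peak overlapped more than 2 of the other list, as 22 ARID3B and 14 KDM4C peaks did.

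Whether a region was called with both antibodies went with the caller's score, which is minus 10 times log10 of its p-value. Among ARID3B peaks with a score under 60, 55 of 1810 were co-called (3.04%, 2.30 to 3.94). The share was 15.6% from 60 to 100 and 72.1% from 100 to 200, and 141 of the 143 peaks with 200 or more were co-called (98.6%, 95.04 to 99.8). For KDM4C the shares in the same classes were 10.8%, 46.3%, 89.1% and 100% (122 of 122, 97.0 to 100). These scores come from the lists that define co-calling, so the shares are a description.

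**Figure D1:**
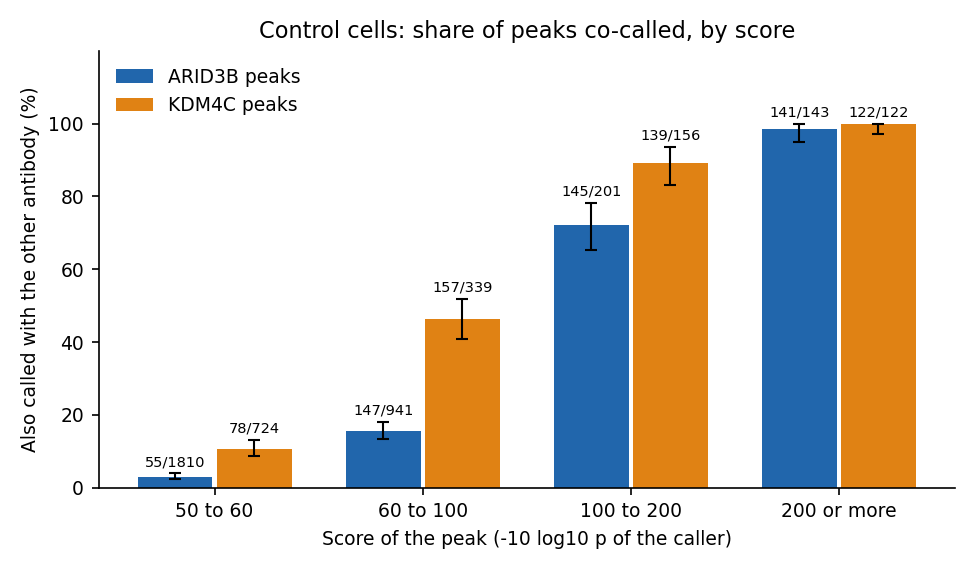
Share of control-cell peaks that overlapped a peak of the other antibody (y axis, percent), by class of the peak's own score (x axis). Bars are shares, whiskers exact 95% intervals, and the numbers give co-called over all peaks. Both antibodies go from a low share under a score of 60 to 98.6% or 100% at 200 or more.

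Where both antibodies called a region, they placed its highest point at nearly the same base. The 510 overlapping pairs had a median distance between ARID3B and KDM4C summits of 14 bp (12 to 17). In 29 pairs the summits fell on the same base, in 215 (42.2%) within 10 bp, in 314 (61.6%) within 25 bp and in 386 (75.7%) within 100 bp. The caller estimated fragment lengths of 86 bp for ARID3B and 82 bp for KDM4C, close to the tag length of 75 bp in both libraries. Most offsets were smaller than these estimates, and the true fragment length was not tested. Neither antibody lay to one side, as the KDM4C summit had the higher coordinate in 234 pairs and the lower in 247, with a median signed offset of 0.

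Width set how far summits could part. Where the wider peak of a pair measured up to 300 bp, the median distance was 8 bp (5 to 11) over 93 pairs. The largest there was 155 bp, and overlap of peaks so narrow itself limits the distance. It was 11 bp (8 to 16) for 301 to 500 bp, 17 bp (12 to 32) for 501 to 1000 bp, and 142 bp (43 to 298) over 1000 bp. In the widest class 47 of 152 pairs (30.9%) had summits more than 500 bp apart, and 57 (37.5%) still had them within 25 bp. Pairs whose lower score was under 60 had a median of 19 bp (14 to 34), against 8 bp (5 to 12) where both scores reached 200. The far pairs did not become fewer, with 72.2% and 74% within 100 bp and 8.70% and 11% over 500 bp apart.

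**Figure D2:**
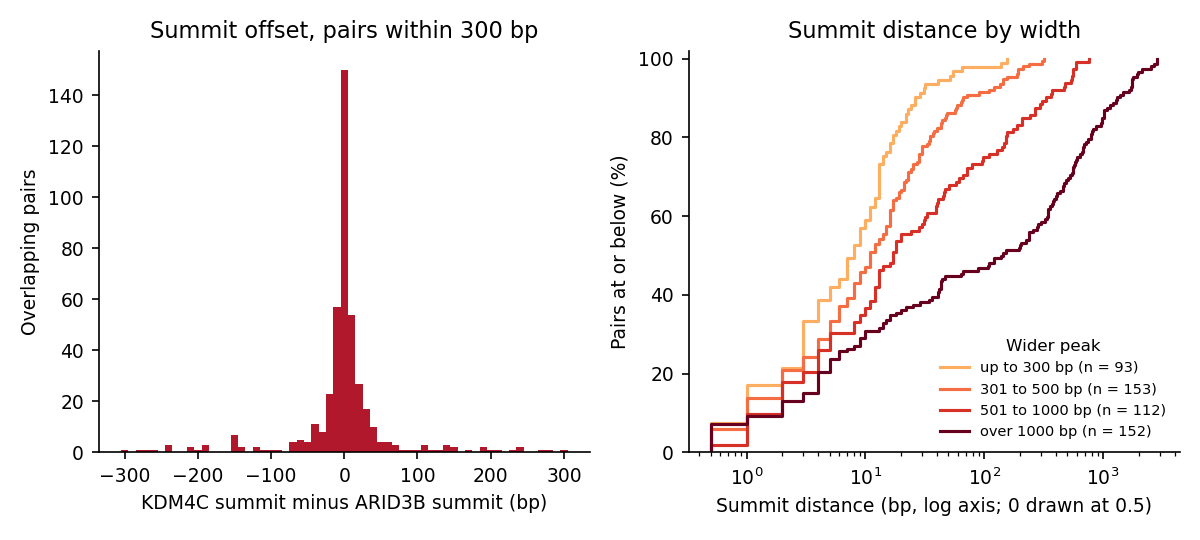
Left, KDM4C summit position minus ARID3B summit position for overlapping pairs within 300 bp, in bins of 10 bp. Right, cumulative share of pairs against summit distance (log axis) by the width of the wider peak. Offsets gather around 0 on both sides, and the curve for peaks over 1000 bp lies lowest, with a median of 142 bp.

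The distance between antibodies was about the distance found for 1 antibody between libraries. Control and edited ARID3B summits lay a median of 17 bp apart (14 to 20) over 743 pairs, and 12 bp (10 to 15) at the control peaks that were co-called. Control and edited KDM4C summits lay 14 bp apart (12 to 17) over 464 pairs. In edited cells the 592 pairs of ARID3B and KDM4C peaks had a median of 20 bp (17 to 24). These sets of pairs share libraries and many regions. At the ARID3B-only control peaks that were called again with ARID3B in edited cells, the summits were 27 bp apart (21 to 40) over 282 pairs. The KDM4C-only control peaks called again with KDM4C did not show this, at 15 bp (10 to 22) over 61 pairs against 14 bp (11 to 17) at co-called ones.

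The strongest one-to-one pairs were ranked by the lower of the 2 scores, with ties at the score limit of 3100 ordered by fold enrichment. The first was on chromosome 1, where ARID3B ran from 121482647 to 121485448 with 2079 tags and KDM4C from 121482995 to 121485464 with 2131 tags. Both scores were 3100, and the summits were 9 bp apart. The next, on chromosome 6, spanned 58776073 to 58779885 for ARID3B (3437 tags) and 58776198 to 58779895 for KDM4C (3656 tags), with summits 1723 bp apart. Each of these 2 very wide regions adjoins a centromere.

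The third pair, on chromosome 2, spanned 109815606 to 109816482 for ARID3B (score 2973, 501 tags) and 109815646 to 109816435 for KDM4C (score 2748, 423 tags). Its nearest ARID3B neighbour was 1065 kb away. The other two were on chromosome 9 and were narrower. From 66970965 to 66971544, ARID3B had 268 tags and KDM4C 275, and the summits differed by 1 bp. From 69710770 to 69711381, ARID3B had 246 tags and KDM4C 276, and the summits differed by 2 bp. All 5 regions were called with both antibodies in edited cells too. So were most co-called peaks with a score of 200 or more, 137 of 141 for ARID3B (97.2%) and 119 of 122 for KDM4C (97.5%).

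Signal followed between the antibodies across the 442 one-to-one pairs. Median tag counts were 44 for ARID3B and 34.5 for KDM4C. Per 1000000 filtered tags, the ARID3B count was higher in 197 pairs (44.6%), and the median log2 ratio of ARID3B to KDM4C was -0.09 (quartiles -0.42 and 0.32). Only 40 pairs differed by more than 2-fold, 25 with more ARID3B and 15 with more KDM4C tags. Tag counts had a Spearman rho of 0.90 over these pairs and tags per bp one of 0.83. These are descriptions over regions that share the same cells and were chosen for being called in both libraries, and width enters the counts. ARID3B peaks were the wider ones in 278 pairs, at a median of 427 bp against 396.5 bp.

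Co-called peaks were wider and held more tags than antibody-only peaks of the same list. The median co-called ARID3B peak was 443.5 bp wide (415 to 485) with 47 tags (42 to 53), and the median ARID3B-only peak 281 bp (276 to 284) with 13 tags (13 to 14). For KDM4C the medians were 419.5 bp (387 to 449) with 38 tags (34 to 46) against 247 bp (242 to 251) with 11 tags (11 to 12). Peaks over 1000 bp made up 24.2% of co-called and 1.80% of ARID3B-only peaks, and 19.4% and 1.54% for KDM4C. The overlap rule favours wide peaks. Co-called peaks covered 421 kb, or 31.5%, of the bases under ARID3B peaks and held 58.1% of the tags in them, and for KDM4C 377 kb, or 59.9%, with 80.6% of the tags.

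The difference in width did not hold at every score. Under a score of 60, co-called ARID3B peaks had a median width of 298 bp (278 to 391) against 265 bp (262 to 267), and KDM4C peaks 313 bp (285 to 406) against 242 bp (238 to 247). From 100 to 200 the order turned for ARID3B, with 521 bp (461 to 618) in 145 co-called and 605 bp (515 to 695) in 56 ARID3B-only peaks, intervals that overlap. In that class tags per 100 bp were higher in the co-called peaks, at 10.4 (9.48 to 10.95) against 6.63 (6.36 to 6.90). The median scores in that class were 136 and 124. For KDM4C the tags per 100 bp were 9.45 (8.48 to 10.1) against 8.54 (7.38 to 11.6) in 17 KDM4C-only peaks, with overlapping intervals.

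**Figure D3:**
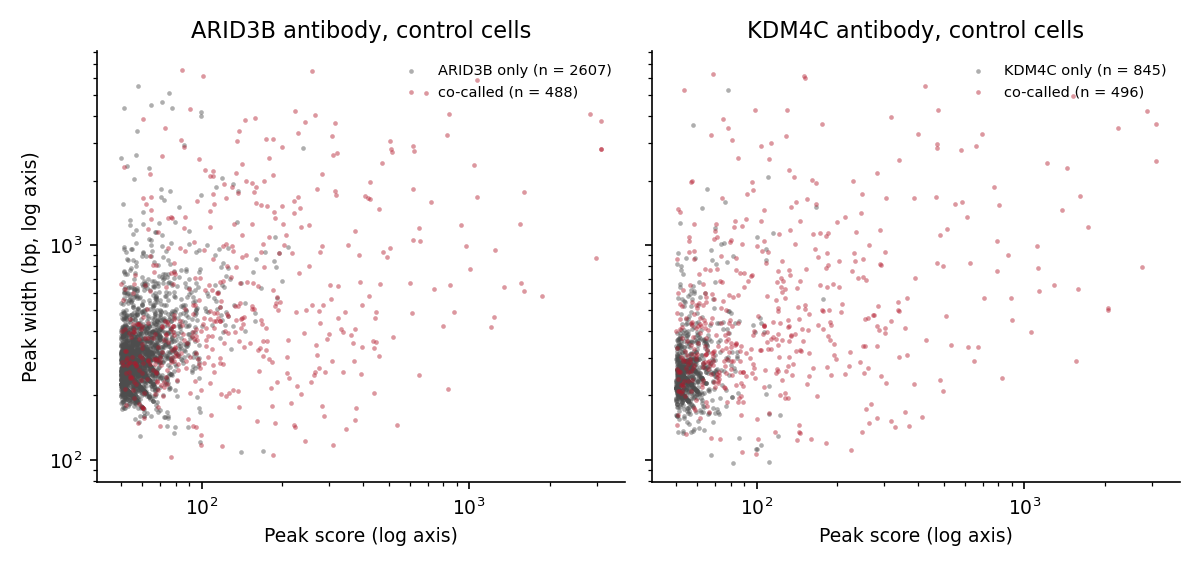
Width of each control-cell peak (y axis, bp, log) against its score (x axis, log) for ARID3B (left) and KDM4C (right), with co-called peaks in red and antibody-only peaks in grey. Antibody-only peaks crowd at scores under 100 and widths near their medians of 281 and 247 bp, and co-called peaks spread to higher scores and widths.

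Local background also moved with co-calling. It was recovered from each peak's tags and score as a multiple of the genome mean, and the tags of a peak and of its neighbours can raise it. At co-called peaks the median was 2.66 (2.32 to 3.04) for ARID3B and 2.85 (2.46 to 3.28) for KDM4C, against 1.18 (1.16 to 1.20) and 1.19 (1.15 to 1.23) at antibody-only peaks. Background of at least 2 times the mean was found at 61.4% of co-called and 11.8% of ARID3B-only peaks, and at 61.3% and 15.3% for KDM4C. Under a score of 60 the medians were still 1.68 (1.28 to 2.21) against 1.13 (1.10 to 1.15) for ARID3B and 1.97 (1.58 to 2.60) against 1.16 (1.12 to 1.19) for KDM4C. From 100 to 200 they were 3.43 (2.57 to 4.13) against 1.77 (1.54 to 2.14) for ARID3B, and for KDM4C 2.72 (2.103 to 3.66) against 2.42 (1.0 to 10.3) at the 14 KDM4C-only peaks with a value, intervals that overlap. The part of background in co-calling was not tested.

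Co-called peaks stood in clusters along the chromosomes and antibody-only peaks mostly stood alone. Another ARID3B peak lay within 10 kb of 286 of the 488 co-called ARID3B peaks (58.6%, 54.1 to 63.0), against 249 of the 2607 ARID3B-only peaks (9.55%, 8.45 to 10.7). Another KDM4C peak lay within 10 kb of 283 of the 496 co-called KDM4C peaks (57.1%, 52.6 to 61.5), against 116 of the 845 KDM4C-only peaks (13.7%, 11.5 to 16.2). The gap was present among weak ARID3B peaks as well, at 49.1% against 6.72% for scores under 60. With both lists cut to scores of at least 100, pairs and neighbours were counted anew, so peaks over a weaker partner counted as antibody-only. The difference then held for ARID3B, at 44.2% against 21.3%, and turned for KDM4C, at 46.5% of 217 against 50.8% of 61 peaks. In the uncut lists, the shares for scores from 100 to 200 were 70.3% against 23.2% for ARID3B. For KDM4C they were 64.0% (55.5 to 72.0) against 52.9% (27.8 to 77.0) of 17 peaks, with overlapping intervals. Outside the 28 windows of 1 Mb with at least 10 peaks of either list, the shares were 37.1% against 5.63% for ARID3B and 34.7% against 7.43% for KDM4C.

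**Figure D4:**
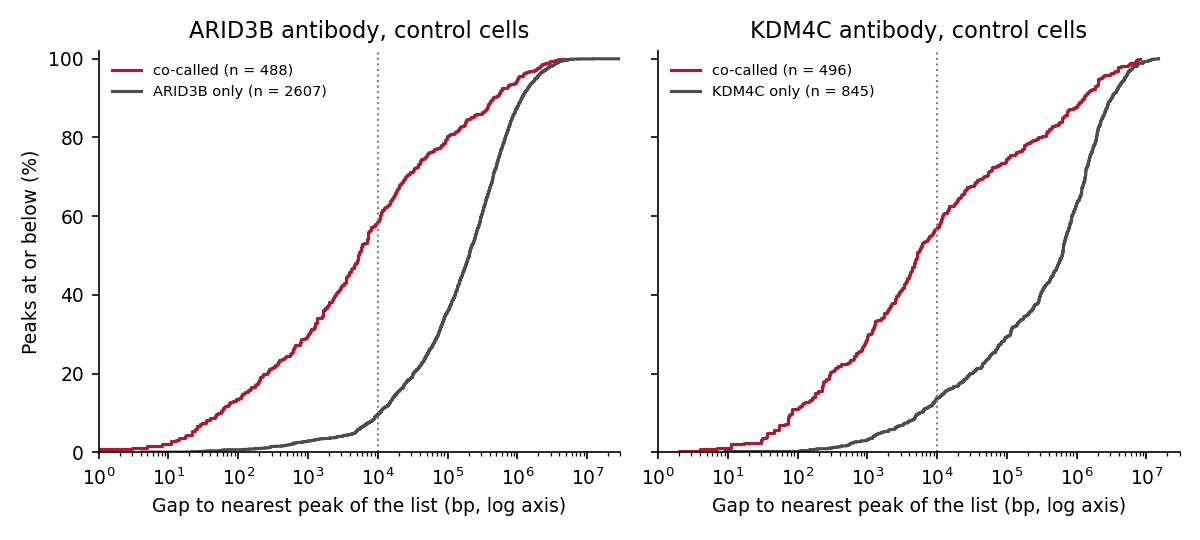
Cumulative share of peaks (y axis, percent) against the gap to the nearest peak of the same list (x axis, bp, log) for ARID3B (left) and KDM4C (right), with a dotted line at 10 kb. The co-called curves pass 10 kb at 58.6% and 57.1%, and the antibody-only curves at 9.55% and 13.7%.

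When the peaks of both lists were chained over gaps of at most 10 kb, they formed 3407 runs. Most runs were lone peaks of 1 antibody, 2296 with ARID3B and 668 with KDM4C. No run made of 1 antibody alone had more than 3 peaks. Of the 156 runs with at least 3 peaks, 132 held a co-called region, as did all 21 runs with at least 10. Peaks of both antibodies shared a run without touching in 63 cases.

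The 5 runs with most peaks lay beside centromeres, where satellite repeats are common. A run of 24 peaks on chromosome 1 from 121407370 to 121485464 had 12 peaks of each antibody, 8 of each co-called. Another of 24 on chromosome 4 from 49272419 to 49333740 had 13 ARID3B and 11 KDM4C peaks, 7 and 9 of them co-called. On chromosome 11 from 51568877 to 51591636, 10 of 12 ARID3B and 10 of 11 KDM4C peaks were co-called within 22.8 kb. On chromosome 2 from 92268899 to 92326182, 11 of 12 and 11 of 11 were, and on chromosome 4 from 49093195 to 49158615, 8 of 9 and 8 of 13. The 1 Mb window of chromosome 4 from 49000001 to 50000000 had the most co-called peaks, 21 of 31 for ARID3B and 23 of 34 for KDM4C, and also the most KDM4C-only peaks, 11. The window with the most ARID3B-only peaks was on the same chromosome from 190000001 to 191000000, near the end of the long arm, with 18 of 22.

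The 28 dense windows held 221 of the 488 co-called ARID3B peaks (45.3%) and 228 of the 2607 ARID3B-only peaks (8.75%). For KDM4C they held 225 of 496 (45.4%) and 118 of 845 (13.96%). Inside them 49.2% of ARID3B and 65.6% of KDM4C peaks were co-called, and outside them 10.1% and 27.2%. The other co-called peaks were widely spread. Co-called ARID3B peaks occurred in 202 windows of 1 Mb, with a single one in 122 of these.

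Many co-called peaks stood alone. Local background is taken over a 10 kb window, which can include tags of neighbouring peaks, and their part in it was not tested. The 202 co-called ARID3B peaks with no ARID3B neighbour within 10 kb had a median score of 115 (98.99 to 140) and the 286 clustered ones 118 (108 to 133). Their median background was 1.72 (1.55 to 2.02) against 4.01 (3.42 to 5.14). For KDM4C the lone peaks scored lower, at 85.2 (77.3 to 101) for 213 peaks against 122 (107 to 133), with a background of 1.69 (1.54 to 1.80) against 4.95 (4.05 to 5.58). Lone antibody-only peaks had a median background of 1.15 (1.13 to 1.17) for ARID3B and 1.14 (1.11 to 1.18) for KDM4C. A group of 25 co-called ARID3B peaks had no ARID3B neighbour within 1 Mb. Their median background was 1.10 (1.0 to 1.37), their width 340 bp (263 to 400) and their score 118 (71.2 to 283). Summits of pairs with both peaks alone were 18 bp apart (13 to 31), against 13 bp (10 to 16) for the other pairs. Among pairs up to 500 bp wide the medians were 10.5 bp (7 to 15) and 9 bp (6 to 12), with overlapping intervals.

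Antibody-only peaks seldom had a called peak of the other antibody close by. Signal of the other antibody below the caller's cutoff was not examined. Of the ARID3B-only peaks, 59 of 2607 (2.26%) had a KDM4C peak within 1 kb, and the median gap to the nearest KDM4C peak was 687 kb. Of the KDM4C-only peaks, 46 of 845 (5.44%) had an ARID3B peak within 1 kb, and the median gap was 169 kb, to the longer list. The pair with the fewest shared bases, 1 bp, was on chromosome 19, where KDM4C ran from 27732541 to 27732959 and ARID3B from 27732959 to 27733483. On chromosome 8, an ARID3B peak from 129361689 to 129363251 shared 2 bp with a KDM4C peak that started at 129363250. Just outside the rule, an ARID3B peak on chromosome 8 from 142502578 to 142502744 lay 2 bp from a KDM4C peak that ended at 142502575. Another on chromosome 8, from 46838918 to 46839583, lay 4 bp from a KDM4C peak and overlapped a different one.

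Wide regions could be cut differently in the lists. One joined region had 5 peaks, on chromosome 17, where 2 ARID3B peaks from 25265814 to 25268131 met 3 KDM4C peaks from 25266162 to 25268038. On chromosome 19 from 27732531 to 27733532, 2 peaks of each antibody were linked, with summits at 27732711 and 27733209 for ARID3B and 27732730 and 27733209 for KDM4C. On chromosome 4 from 1421273 to 1422885, 2 peaks of each were linked too. The largest summit distances came from peaks of several kb. They were 2870 bp on chromosome 2, where ARID3B from 92322282 to 92326181 and KDM4C from 92317018 to 92322312 shared 31 bp, 2820 bp on chromosome 8 at the ARID3B peak from 126601154 to 126607658, and 2673 bp on chromosome 16 at the ARID3B peak from 46431617 to 46435703.

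The 2 ARID3B-only peaks with a score over 200 were on chromosome 1 from 148847958 to 148850812 (score 239.7, 283 tags) and on chromosome 7 from 30155036 to 30156015 (210.5, 81 tags). The first had a KDM4C peak 170 kb away and the second one 2218 kb away. On chromosome 18 from 19812185 to 19812868, a peak with a score of 199 from 46 tags was called in neither edited list. Chromosome 6 from 26798370 to 26799292 (194) and chromosome 12 from 18249680 to 18250247 (192) followed. The peaks on chromosomes 1, 7 and 6 were called in edited cells with ARID3B alone, and that on chromosome 12 with both antibodies. Among the 56 ARID3B-only peaks with scores from 100 to 200, 36 (64.3%) were called in edited cells with ARID3B. Both antibodies called 16 of the 56 (28.6%), and neither called 20 (35.7%).

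Of the 5 leading KDM4C-only peaks, 4 had another KDM4C peak within 10 kb. Chromosome 2 from 89869566 to 89870128 had a score of 176 from 113 tags, with an ARID3B peak 0.484 kb away. Chromosome 4 from 49093195 to 49094699 had 167 from 246 tags and a KDM4C neighbour 9 bp away, inside one of the runs named above. Chromosome 3 from 90403065 to 90403226 had 123, chromosome 20 from 26310411 to 26310539 had 121, each from 15 tags, and chromosome 4 from 49138628 to 49139771 had 115 from 225 tags. All 5 overlapped a peak of both edited lists, ARID3B included. So did 10 of the 17 KDM4C-only peaks with scores from 100 to 200 (58.8%), the class of these 5. Over all KDM4C-only peaks it was 37 of 845 (4.38%), and over co-called KDM4C peaks 377 of 496 (76.0%).

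The edited-cell libraries, which played no part in sorting the peaks, gave a readout of each class. Of all control ARID3B peaks, 22.8% were called in the edited ARID3B list and 16.3% in the edited KDM4C list. Of the 488 co-called ones, 434 (88.9%, 85.8 to 91.6) and 386 (79.1%, 75.2 to 82.6) were, and of the 2607 ARID3B-only ones 273 (10.5%, 9.32 to 11.7) and 120 (4.60%, 3.83 to 5.48). Of all control KDM4C peaks, 40.0% were called in the edited ARID3B list and 34.0% in the edited KDM4C list. Among the 496 co-called ones these shares were 88.7% (85.6 to 91.4) and 79.6% (75.8 to 83.1), and among the 845 KDM4C-only ones 11.4% (9.30 to 13.7) and 7.22% (5.57 to 9.18). KDM4C-only peaks of control cells thus met the edited ARID3B list more often, at 96 peaks, than the edited KDM4C list, at 61, and the edited ARID3B list is the longer one, with 4577 autosomal peaks against 1742.

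The classes differed at like scores too. Among ARID3B peaks under 60, 65.5% (51.4 to 77.8) of 55 co-called and 5.07% (4.09 to 6.20) of 1755 ARID3B-only peaks were called again with ARID3B. From 100 to 200 these shares were 98.6% (95.1 to 99.8) and 64.3% (50.4 to 76.6), and with the KDM4C antibody in edited cells 85.5% (78.7 to 90.8) and 28.6% (17.3 to 42.2). Among KDM4C peaks under 60, 51.3% (39.7 to 62.8) of 78 co-called and 2.01% (1.08 to 3.42) of 646 KDM4C-only peaks were called again with KDM4C. From 100 to 200 the KDM4C shares were 94.2% (89.0 to 97.5) and 82.4% (56.6 to 96.2) of only 17, with overlapping intervals. Neither edited list had a call at 2302 of 2607 ARID3B-only (88.3%) and 725 of 845 KDM4C-only peaks (85.8%). Among the co-called peaks of the same lists these counts were 37 of 488 (7.58%) and 38 of 496 (7.66%). Most peaks of the whole control lists also lacked a call in any given edited list. The edited ARID3B and KDM4C lists had calls at 22.8% and 16.3% of all control ARID3B peaks, and at 40.0% and 34.0% for KDM4C. Each of these shares is for a single edited list, a different measure from a call in neither.

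Co-called shares varied among the chromosomes. The highest were on chromosome 19, with 20 of 57 ARID3B peaks (35.1%, 22.9 to 48.9) and 20 of 33 KDM4C peaks (60.6%, 42.1 to 77.1). Chromosomes 8 (30.2% and 53.2%) and 4 (25.5% and 48.1%) were also high with both antibodies, and chromosome 18 had 8 of 26 and 8 of 17. Dense windows held many of these peaks. The window from 49000001 had 21 of the 36 co-called ARID3B peaks of chromosome 4. That from 27000001 had 11 of the 20 on chromosome 19. On chromosome 8, the windows from 43000001 and 46000001 had 12 and 9 of 45. The lowest shares were on chromosome 13, with 1 of 33 ARID3B and 1 of 18 KDM4C peaks. Chromosomes 13, 14 and 15, grouped after their values were seen, together had 8 of 163 (4.91%, 2.14 to 9.44) against 16.4% (15.05 to 17.8) elsewhere for ARID3B, and 8 of 81 (9.88%, 4.36 to 18.5) against 38.7% (36.03 to 41.5) for KDM4C. These 3 chromosomes have their centromere near one end, as do chromosomes 21 and 22, whose shares were not low, with 14 of 52 and 7 of 35 ARID3B peaks and 15 of 30 and 7 of 15 KDM4C peaks.

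**Figure D5:**
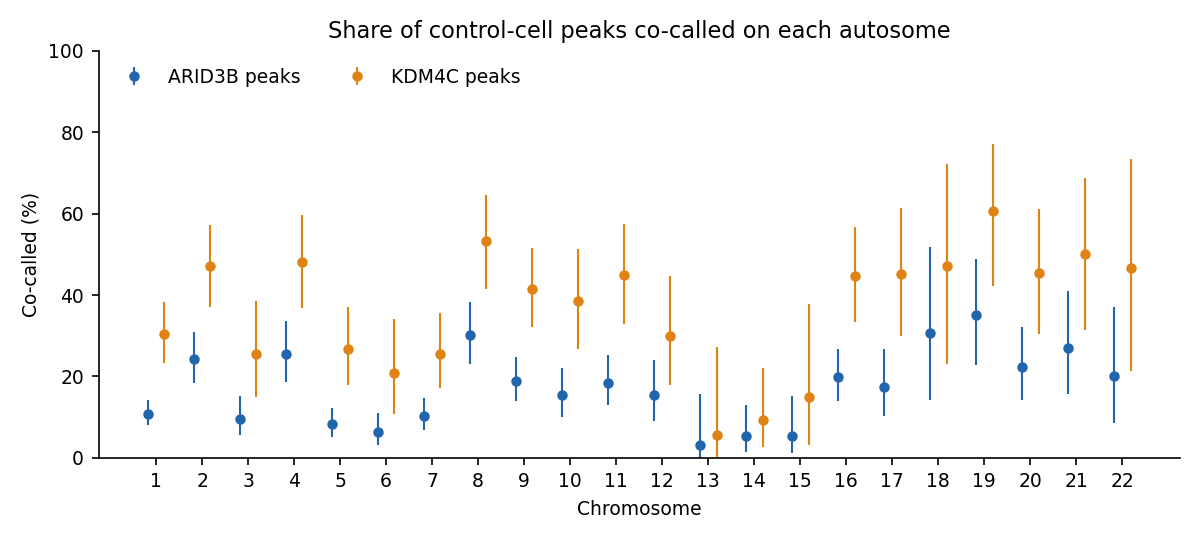
Share of control-cell ARID3B and KDM4C peaks that were co-called (y axis, percent) on each autosome (x axis), with exact 95% intervals as whiskers. Chromosome 13 is lowest with 3.03% and 5.56%, and chromosome 19 highest with 35.1% and 60.6%.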

How the data were processed

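Per the file headers, the authors ran MACS 1.4.2 on each library alone with no control file, setting the p-value cutoff to 1e-05, the effective genome to 2.7 Gb and the regional window to 10 kb, and kept at most 1 tag per position. The submitters' processing notes name BWA 0.7.12, bcl2fastq 2.1.5 and GRCh37. Deposited tag counts are whole, unnormalized tags per peak. Deposited scores are minus 10 log10 of the MACS p-value, from 50 to a limit of 3100. Fold enrichment, as deposited, is a ratio over local background. The control libraries had 24439463 (ARID3B) and 20668533 (KDM4C) filtered tags, and the smallest peaks had 10 and 9 tags, so calls near the cutoff rest on few tags.

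Overlaps, gaps and summit distances (start + summit - 1) were computed with Python 3.11.15, pandas 2.3.3 and scipy 1.17.1. Shares have exact Clopper-Pearson intervals and medians exact binomial ones. No test was run, with 1 library per group. Local background solves the Poisson probability of more tags than observed for its mean, over the peak width or 2 fragment lengths. Its implied summit heights were whole within 0.05 at 96.8% of ARID3B and 93.8% of KDM4C peaks, and it was left out at 22 and 20 peaks. The steps were checked on simulated lists.

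The members and lists were chosen with earlier results of these data known. Regions named are the 5 leading pairs, the 5 leading peaks of each antibody alone, the extremes of summit distance, shared bases and gap, the 5 runs with most peaks, the leading windows and the 3 joined regions with at least 4 peaks. Alternatives changed the chromosomes, score, overlap rule, windows, list length and gap. No annotation or genome on GRCh37 was used here, so genes and sequences are not given.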

Additional observations from a re-analysis of the deposited data

Results flagged for a closer look

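Chromosomes X and Y lay outside the comparison and also carried co-called peaks. On them 94 of 169 ARID3B peaks (55.6%, 47.8 to 63.2) and 91 of 153 KDM4C peaks (59.5%, 51.3 to 67.3) were co-called. The autosomal shares were 15.8% and 37.0%, and the difference was not tested.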

How the results depend on the processing

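Of 55 values recomputed for the 7 quantities, 22 stayed within the 95% interval of the reported value and 33 moved outside it. The share of ARID3B peaks co-called was 17.8% with chromosomes X and Y, 29.6% at scores of at least 60 in both lists, 63.1% at 100, 13.2% when 50% of both peaks had to overlap, 12.5% for summits within 100 bp, 10.1% without dense windows and 32.6% at equal list length. The KDM4C share was 62.1%, 78.1%, 30.4%, 28.8%, 27.2% and 33.3% in the same order from the score of 60 on. The median summit distance was 10 bp at scores of at least 100, 8.5 bp for summits within 100 bp, which follows from that rule, and 9.5 bp for pairs up to 500 bp wide, an alternative chosen after seeing the data. Co-called ARID3B width was 490 bp at 60, 580 bp at 100 and 395.5 bp for summits within 100 bp, and KDM4C width 454, 570 and 361 bp, and 367 bp without dense windows. With both lists cut at 100, the 127 ARID3B and 61 KDM4C peaks without a partner that strong were 601 and 329 bp wide. Peaks over a weaker partner are among these. In the uncut lists, antibody-only peaks from 100 to 200 had medians of 605 bp for ARID3B and 396 bp (162 to 854) for 17 KDM4C peaks. Clustered shares of co-called ARID3B and KDM4C peaks were 64.1% and 61.8% with X and Y, 44.2% and 46.5% at 100, 37.1% and 34.7% without dense windows, 29.9% and 29.6% for gaps up to 1 kb, and 80.3% and 74.6% up to 100 kb. The cause of moves by score was not tested. No paired analysis was possible because each group held 1 library. Peaks under a score of 60 had a median of 11 to 18 tags by class, and the effect of depth on their calls was not tested.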

Other observations

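A stretch of 5 Mb on chromosome 11, from 31000001 to 36000000 and chosen after its values were seen, held 38 ARID3B peaks of control cells and none was co-called. All scored under 100, where 3.04% (under 60) and 15.6% (60 to 100) of the whole list were co-called, and the stretch was picked for having none. KDM4C had 2 peaks there. None of the 38 overlapped an ARID3B peak of edited cells, which had 20 others in the stretch, and 1 overlapped a KDM4C peak of edited cells. Over all ARID3B-only peaks, 5.07% of those under 60 and 18.4% of those from 60 to 100 were called again with ARID3B. Scores ran from 50.9 to 97.9, and the median width was 565.5 bp, wider than the 281 bp of ARID3B-only peaks in all. Local background at the 38 peaks had a median of 2.54 times the genome mean (lowest 1.22, highest 3.88), against 1.24 over the whole control ARID3B list. At the 20 ARID3B peaks of edited cells the median was 1.51 (lowest 1.0, highest 2.20), against 1.22 over that list. At the 2 control KDM4C peaks it was 2.30 and 2.81.

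Other windows of 1 Mb with many ARID3B peaks and no co-called one were on chromosome 7 from 16000001 to 17000000 and on chromosome 9 from 75000001 to 76000000, with 8 ARID3B peaks and no KDM4C peak each. Their median background was 1.19 and 1.05. Median background was higher in some other windows without a co-called ARID3B peak. It was 2.84 for the 6 ARID3B peaks on chromosome 1 from 148000001 to 149000000. On the same chromosome from 145000001 to 146000000 it was 2.63 for 5 peaks. On chromosome 11 from 66000001 to 67000000 it was 2.31 for 5 peaks. Outside these and the chromosome 11 stretch, all windows with at least 5 ARID3B peaks and none co-called had a median below 2. The highest of these medians was 1.67, on chromosome 5 from 10000001 to 11000000. Of the 8 and 8 peaks on chromosomes 7 and 9, 0 and 1 were called with ARID3B in edited cells, beside 10.5% of all ARID3B-only peaks.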
